A study of Mus musculus with 18 samples.

Results

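The genes examined were the glutathione peroxidases Gpx1, Gpx3, Gpx4, Gpx7 and Gpx8 and the superoxide dismutases Sod1, Sod2 and Sod3. They were taken by symbol, 8 of the 35441 genes listed in the table of estimated read counts, and all 8 had more than 100 reads over all mice, the limit for testing. In whole-liver RNA of Lipa-/- mice, Gpx3, Gpx7 and Gpx8 were higher than in WT mice and Gpx1 and Sod1 were lower, at both time points. The 12-week calls of Gpx1 and Sod1 held in only 1 of 6 and 3 of 6 fits that each left out 1 mouse. Both were also lost when counts were scaled by the library total alone. In rAAV8-treated Lipa-/- mice, Gpx3 was lower than in Lipa-/- mice and Gpx1 was higher. At 34-weeks, this call of Gpx1 held in only 2 of 6 fits with a mouse left out. At 34-weeks, none of the 8 genes passed the edgeR test between treated mice and WT mice, against 0.22% of all tested genes. Gpx3 was still higher in every treated mouse than in every WT mouse of that time, but the share of all genes that did not overlap is not given here. It passed in DESeq2 (adjusted p = 0.00157) and in 0 of 6 edgeR fits that each left out 1 mouse.

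RNA was sequenced from the livers of 18 mice, 3 in each of 6 groups, so that every group mean below has n = 3. WT mice and Lipa-/- mice were untreated. In Lipa-/- mice, exon 4 of Lipa, the gene of lysosomal acid lipase, had been removed by crossing a conditional allele with mice that express Cre under the CMV promoter, and the line was backcrossed onto C57/BL6N. The third kind of mouse, called KOT in the labels, was a Lipa-/- mouse that had been given rAAV8.hAAT.LIPA, an adeno-associated virus injected into the tail vein. Its human LIPA cDNA is driven by the hepatocyte-specific hAAT promoter. The vector adds this cDNA and leaves the deletion in place in all cells, hepatocytes included. The paper reports that hepatocytes secrete the enzyme into the blood and that it also acts in other tissues. The study's methods state that male Lipa-/- mice were used and that the vector was given to young adults. Each kind of mouse was examined at 12- and 34-weeks post-injection (3 and 8 months in the labels), and the labels give no dose. According to the study's methods, most untreated Lipa-/- mice of the later arm had reached an endpoint and been sacrificed earlier, so the later label of these livers is nominal. All mice of 34-weeks carry 1 study code in the labels and all mice of 12-weeks another, except Lipa-/- mouse 5 of 12-weeks with a code of its own, so time and study code cannot be told apart.

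Glutathione peroxidases reduce hydrogen peroxide or lipid peroxides, most of them with glutathione as the electron donor, and superoxide dismutases turn superoxide into hydrogen peroxide and oxygen. Gpx1 is the abundant cytosolic and mitochondrial peroxidase of hepatocytes, Gpx4 reduces peroxidized phospholipids within membranes and restrains ferroptosis, and Gpx3 is secreted and circulates in plasma. Gpx7 and Gpx8 act in the endoplasmic reticulum, where they pass oxidizing equivalents from peroxide to protein disulfide isomerases. Sod1 is the copper-zinc enzyme of the cytosol, Sod2 the manganese enzyme of the mitochondrial matrix and Sod3 the secreted copper-zinc enzyme that binds to the extracellular matrix.

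The catalytic residue divides the 5 peroxidases. Gpx1, Gpx3 and Gpx4 are selenoproteins, in which an in-frame TGA codon is read as selenocysteine, whereas Gpx7 and Gpx8 carry a cysteine codon there. The sequences around that codon are shown because they tell which of these mRNAs depend on selenium. They were read from GRCm39 over 45 coding bases in the direction of transcription, with the catalytic codon in capitals.
Gpx1: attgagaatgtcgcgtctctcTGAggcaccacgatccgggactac
Gpx3: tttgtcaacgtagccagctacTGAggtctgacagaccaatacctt
Gpx4: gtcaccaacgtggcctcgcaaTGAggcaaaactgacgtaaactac
Gpx7: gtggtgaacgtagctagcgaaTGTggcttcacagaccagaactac
Gpx8: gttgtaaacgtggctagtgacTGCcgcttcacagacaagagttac
The windows lie at chr9:108216629-108216673 on the plus strand for Gpx1, chr11:54798061-54798105 on the plus strand for Gpx3 and chr10:79890550-79890594 on the plus strand for Gpx4. Those of Gpx7 and Gpx8 lie on the minus strand, at chr4:108260606-108260650 and chr13:113182174-113182218. The codon is number 47 of 201 in exon 1 of Gpx1, number 73 of 226 in exon 2 of Gpx3 and number 73 of 197 in exon 3 of Gpx4. In Gpx7 it is number 56 of 186 and in Gpx8 number 79 of 209, both in exon 2. The canonical coding sequences of Gpx1, Gpx3 and Gpx4 each hold 1 in-frame TGA before the stop codon, and those of the other 5 genes hold 0. Gpx7 and Gpx8 share 35 of the 45 bases, and the other pairs share 21 to 30.

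The 3 dismutase genes lie at chr16:90017408-90027657 (Sod1), chr17:13224095-13259591 (Sod2) and chr5:52521070-52528883 (Sod3), all on the plus strand. The core of the antioxidant response element, TGACNNNGC, was searched on both strands from 250 bases before to 50 bases after the start of each gene's canonical transcript, which lies inside the annotated gene for Gpx1, Gpx3, Gpx4 and Sod2. It was found in 12.5% of 21770 promoters of the annotation and in 1 of the 8 genes, Sod1, at 95 bases before the start on the minus strand.

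Between 17527848 and 25833134 reads were assigned to genes per mouse, and the 8 genes took 0.218% to 0.864% of them. Levels are given as CPM (counts per library total, scaled by edgeR's TMM factors) for comparisons between mice, and as TPM (the share of transcripts, which accounts for gene length) where genes are compared with each other. Murine Lipa was at 202 to 323 CPM in WT mice and at 16.7 to 37.0 CPM in treated and untreated Lipa-/- mice. The human LIPA transcript was at 523 to 2746 CPM in treated mice, at 0 in untreated Lipa-/- mice and at no more than 0.906 CPM in WT mice. All 18 livers held hepatocyte transcripts, and Alb, Ttr, Apoa1, Serpina1a and Hnf4a summed to 22099 to 105463 CPM. The libraries also differed in how their counts ran with transcript length. The slope of log2 CPM with each doubling of length, after GC content, was -0.55 to -0.43 in the 3 treated mice of 12-weeks and -0.28 in WT mouse 1 of 34-weeks, against -0.18 to 0.39 in the other 14 mice. The same 3 treated mice had TMM factors of 0.587 to 0.759, and Lipa-/- mice had factors of 1.16 to 1.69. Total-count scaling, which leaves these factors out, shifted the median over all tested genes, on the log2 scale, from 0.02 to 0.49 for Lipa-/- against WT mice at 12-weeks and from -0.19 to -1.05 for treated against Lipa-/- mice at 12-weeks. Fold changes below are relative to the TMM scale. The counts of Gpx1, Gpx4 and Sod1 were not whole in any of the 18 libraries. Counts of Sod2 were not whole in 17 of them, of Gpx3 in 8 and of Sod3 in 1. Salmon had thus divided reads between these genes and other sequences, and their values are uncertain to that extent. The counts of Gpx7 and Gpx8 were whole in all 18.

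In WT livers, 2 genes made up most of the transcripts of the 8. At 12-weeks, Gpx1 had a mean of 3635 ± 593 TPM (SD), Sod1 2327 ± 295, Gpx4 509.9 ± 115 and Sod2 152 ± 27.1 TPM. Sod3 had 5.31 ± 2.29 TPM, Gpx3 1.49 ± 0.580, Gpx7 0.745 ± 0.166 and Gpx8 0.552 ± 0.268 TPM. The first 5 genes in this order did not overlap with their neighbours over the 3 mice, while the ranges of Gpx3 and Gpx7 overlapped and so did those of Gpx7 and Gpx8. The order was the same in WT mice of 34-weeks, where Sod3 and Gpx3 also overlapped. In Lipa-/- mice, Gpx3 ranked directly below Gpx1, Sod1 and Gpx4 at both time points, with 289 ± 90.7 TPM at 12-weeks and 663 ± 85.6 TPM at 34-weeks, above Sod2 with 179 ± 37.7 and 173 ± 43.1 TPM.

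The sum of the 5 peroxidases overlapped between WT and Lipa-/- mice while its make-up differed. It was 3376 to 4711 TPM in WT and 3906 to 4400 TPM in Lipa-/- mice at 12-weeks, and 3655 to 7660 against 3396 to 3892 TPM at 34-weeks. Gpx1 made up 87.7% ± 1.26 (SD) of it in WT mice of 12-weeks and 84.0% ± 1.58 at 34-weeks, against 55.8% ± 8.06 and 48.9% ± 1.43 in Lipa-/- mice. The share of Gpx3 was 0.0369% ± 0.0163 and 0.0691% ± 0.0486 in WT mice, and 6.98% ± 2.23 and 18.6% ± 2.82 in Lipa-/- mice. The share of Gpx4 was 12.3% ± 1.24 and 15.9% ± 1.55 in WT mice, and 36.8% ± 8.22 and 31.9% ± 2.31 in Lipa-/- mice. In treated mice, Gpx1 made up 80.8% ± 3.32 at 12-weeks and 85.3% ± 1.49 at 34-weeks, and Gpx3 stood at 0.0778% ± 0.0534 and 0.367% ± 0.317. Each of these shares is a ratio within 1 library. The Gpx1, Gpx3 and Gpx4 shares of Lipa-/- mice did not overlap with those of WT mice at either time. A share also moves with the other genes of the sum, and Gpx3 in treated mice had means of 14.2 and 12.5 CPM at 12- and 34-weeks. The highest Gpx4 share, 46.3%, was in Lipa-/- mouse 5 of 12-weeks, where the gene length that Salmon assigned to Gpx4 was 399 bases. The part of assigned length and of the slope with transcript length in these shares was not tested. The 3 dismutases summed to 2135 to 2708 TPM in WT and 1851 to 2173 TPM in Lipa-/- mice at 12-weeks, which overlap, and to 2662 to 2799 against 1449 to 1601 TPM at 34-weeks, which do not.

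**Figure D1:**
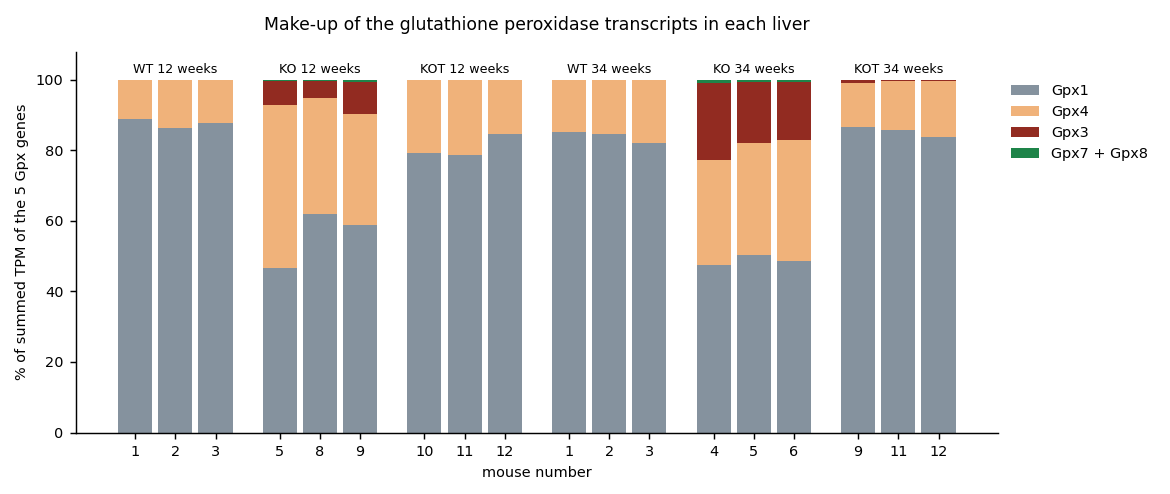
Share of Gpx1, Gpx4, Gpx3 and of Gpx7 with Gpx8 (y axis, %) in the summed TPM of the 5 glutathione peroxidase genes, 1 bar for each of the 18 livers by group and mouse number. Gpx1 takes a mean of 87.7% in WT mice of 12-weeks and 48.9% in Lipa-/- mice (KO) of 34-weeks, where the mean share of Gpx3 is 18.6%.

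The first question was which of the 8 genes differed in livers that lack lysosomal acid lipase. At 12-weeks, Lipa-/- mice had 3 genes above and 2 below WT at an adjusted p under 0.05 (edgeR's quasi-likelihood test, with Benjamini-Hochberg adjustment over 14533 genes), against 39.2% of all tested genes. At 34-weeks, again 3 were higher and 2 lower, against 47.3% of all tested genes, so the 5 of 8 stood beside a high background. The 3 mice of one group did not overlap with the 3 of the other for 52.7% of all tested genes at 12-weeks and 60.3% at 34-weeks. The median log2 fold change of the 8 genes was 0.89 and 0.11, against 0.02 and -0.03 over all genes. The split at 12-weeks depended on the scaling, with 5 genes higher and 0 lower under total counts and by limma on TPM values, and at 34-weeks it was then 4 higher and 2 lower by either. With the trend of counts with length and GC content removed in each mouse, it was 3 and 2 at 12-weeks and 3 and 3 at 34-weeks. Length here is that of the annotated canonical transcript, not the length assigned by Salmon.

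Gpx3, the secreted peroxidase, had the largest difference of the 8. WT mice of 12-weeks had 1.34, 3.45 and 2.41 CPM of Gpx3 and Lipa-/- mice had 250.4, 423 and 319 CPM. At 34-weeks, WT mice had 3.01, 5.44 and 3.00 CPM and Lipa-/- mice 537, 557 and 599 CPM. The lowest Lipa-/- mouse thus stood far above the highest WT mouse, on 6447 reads against at most 138. Gpx3 was 137-fold higher at 12-weeks (log2 fold change 7.10 ± 0.46 SE, adjusted p = 2.13e-08) and 147-fold higher at 34-weeks (7.20 ± 0.46, adjusted p = 2.89e-08). Over all other fits and left-out mice, the log2 values of Gpx3 in Lipa-/- against WT mice kept their direction and passed.

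Both peroxidases of the endoplasmic reticulum were higher as well, at far lower levels. Gpx7 had 0.697, 1.20 and 0.890 CPM in WT mice of 12-weeks and 8.04, 12.6 and 4.44 CPM in Lipa-/- mice, an 8.94-fold difference (3.16 ± 0.42, adjusted p = 2.07e-05). At 34-weeks, Gpx7 had 1.59, 1.02 and 1.40 CPM in WT and 9.65, 8.19 and 9.52 CPM in Lipa-/- mice, a 6.83-fold difference (2.77 ± 0.41, adjusted p = 3.71e-05). WT and Lipa-/- mice did not overlap at either time, and Lipa-/- mouse 5 of 12-weeks was the lowest of the 6 Lipa-/- mice. Gpx8 had 0.268, 0.670 and 0.471 CPM in WT mice of 12-weeks, which rest on 5 to 14 reads, and 2.91, 4.20 and 3.12 CPM in Lipa-/- mice. It was 7.14-fold higher (2.84 ± 0.41, adjusted p = 4.72e-05). At 34-weeks, Gpx8 had 0.944, 0.709 and 0.817 CPM in WT and 5.68, 4.41 and 5.07 CPM in Lipa-/- mice, a 6.13-fold difference (2.62 ± 0.39, adjusted p = 4.37e-05). No value of Gpx8 overlapped between the 2 genotypes.

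Gpx1, the main peroxidase of hepatocytes, was lower. WT mice of 12-weeks had 2990.0, 3287 and 1937 CPM of Gpx1 and Lipa-/- mice 1379.8, 1218 and 886 CPM, without overlap. Gpx1 was 2.36-fold lower (-1.24 ± 0.46, adjusted p = 0.0408), but it passed in only 1 of 6 fits that each left out 1 mouse of these groups, being lost without WT mouse 1 or 2 and without Lipa-/- mouse 5, 8 or 9. It did not pass under total counts (-0.76, adjusted p = 0.117), with edgeR length offsets (adjusted p = 0.051) or by limma on TPM values (adjusted p = 0.153). At 34-weeks, Gpx1 had 5707, 1832 and 1704 CPM in WT mice and 529.8, 706 and 792 CPM in Lipa-/- mice, a 4.56-fold difference (-2.19 ± 0.47, adjusted p = 0.00109). WT mouse 1 was the highest, and without it Gpx1 stayed lower at -1.39, the smallest size over the 6 mice left out, and it passed in all 6 fits. Of the 8 genes, only Sod1 had a shorter length assigned by Salmon than Gpx1 (medians of 414 and 623 bases), and the 4 highest levels of Gpx1 were in the 4 mice whose counts fell most steeply with transcript length. With the length and GC trend removed, the log2 fold change of Gpx1 was -1.68 (adjusted p = 0.00162) at 12-weeks and -2.16 (adjusted p = 0.000182) at 34-weeks.

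Gpx4, the phospholipid peroxidase, did not pass on the TMM scale in the fit of all 6 groups, and its 12-week value passed in other fits. WT mice of 12-weeks had 396, 527 and 275 CPM of Gpx4 and Lipa-/- mice 724, 695 and 647 CPM. These groups did not overlap, yet the difference did not pass (0.79 ± 0.46, adjusted p = 0.187). It passed as higher under total counts (adjusted p = 0.0147) and when only the groups compared were fitted (0.82, adjusted p = 0.0356). At 34-weeks, Gpx4 had 1019.9, 345 and 383 CPM in WT mice, with mouse 1 again the highest, and 311, 397 and 531 CPM in Lipa-/- mice, which overlapped (-0.50 ± 0.46, adjusted p = 0.392). The sign of the later value turned to 0.18 without WT mouse 1. Per length, Gpx4 had 509.9 ± 115 TPM in WT and 1522 ± 255 TPM in Lipa-/- mice at 12-weeks, and limma on log2(TPM + 1) also called it higher (1.59, adjusted p = 0.00226). The gene length that Salmon assigned to Gpx4 moved with this value, being 613 to 695 bases in WT mice of 12-weeks and 399, 570 and 665 bases in Lipa-/- mice 5, 8 and 9, and its part in the result was not tested.

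Of the dismutases, Sod1 was lower, and Sod2 and Sod3 passed in other fits than the one reported. Sod1 had 979.6, 1327 and 1044 CPM in WT mice of 12-weeks and 608, 559 and 693 CPM in Lipa-/- mice, a 1.80-fold difference (-0.85 ± 0.26, adjusted p = 0.0169) without overlap. It lost its call without WT mouse 2, Lipa-/- mouse 8 or Lipa-/- mouse 9 (largest adjusted p 0.0737) under total counts (-0.37, adjusted p = 0.221) and by limma on TPM values (-0.35, adjusted p = 0.305). At 34-weeks, Sod1 had 1458, 902 and 954 CPM in WT and 276, 376 and 391 CPM in Lipa-/- mice, a 3.17-fold difference (-1.67 ± 0.27, adjusted p = 8.73e-05) that passed in all 6 fits with a mouse left out. Sod2 was 168, 187 and 205 CPM in WT and 159, 101 and 180.2 CPM in Lipa-/- mice of 12-weeks, which overlapped (-0.35 ± 0.28, adjusted p = 0.349). At 34-weeks, Sod2 was 160.0, 173 and 201 CPM in WT and 77.9, 153 and 103 CPM in Lipa-/- mice (-0.67 ± 0.28, adjusted p = 0.0563). Lipa-/- mouse 5 was the highest of these 3, and without it Sod2 passed (-0.97, adjusted p = 0.0158). It also passed as lower, with all mice kept, once the length and GC trend was removed (-0.72, adjusted p = 0.0402). That fit took Sod2 at its canonical transcript length of 5983 bases, against a median of 1044 bases assigned by Salmon. The effect of this mismatch was not tested. Sod3 was 13.6, 22.8 and 28.0 CPM in WT and 45.3, 46.2 and 37.2 CPM in Lipa-/- mice of 12-weeks (1.00 ± 0.42, adjusted p = 0.0707). At 34-weeks, Sod3 was 17.8, 33.1 and 32.0 CPM in WT and 49.5, 40.7 and 46.1 CPM in Lipa-/- mice (0.72 ± 0.42, adjusted p = 0.172). Neither value of Sod3 passed, although no Lipa-/- mouse overlapped with a WT mouse, and both passed under total counts (1.46 with adjusted p = 0.0237, and 1.32 with adjusted p = 0.032), when only the groups compared were fitted (adjusted p = 0.0157 and 0.0373) and by limma on TPM values (adjusted p = 0.0151 and 0.0119).

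**Figure D2:**
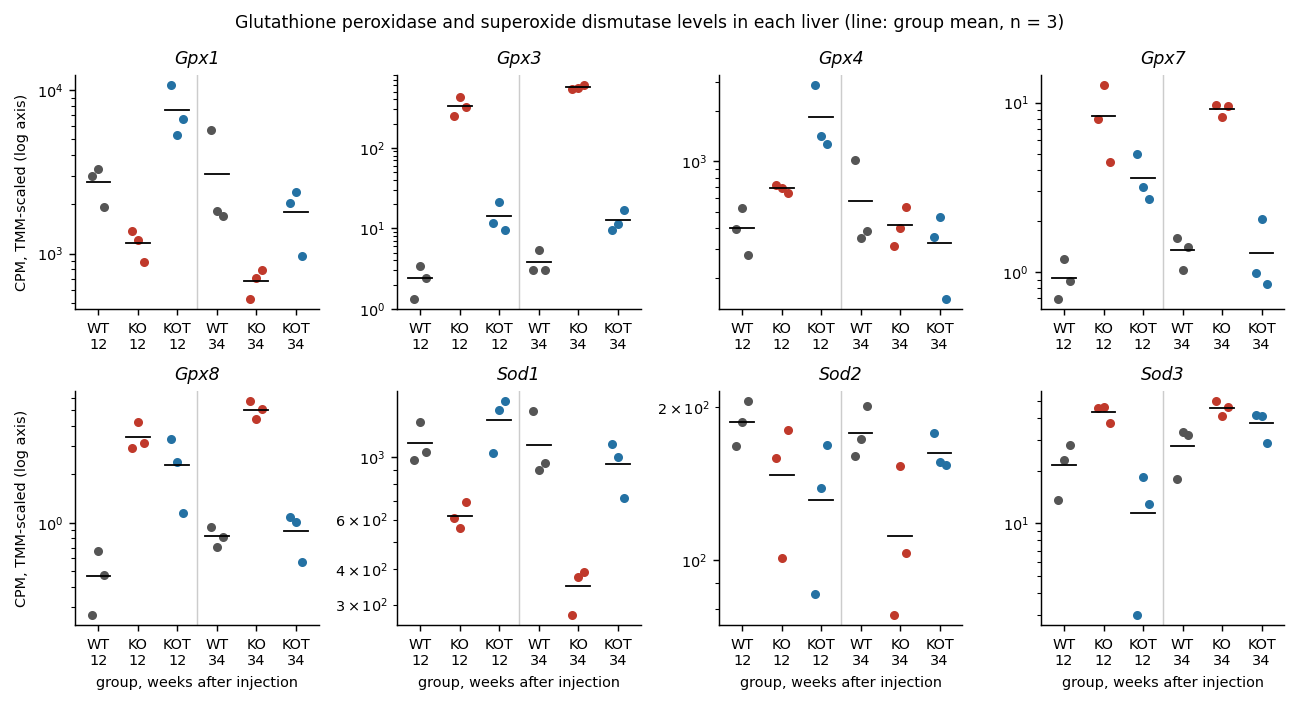
TMM-scaled CPM (y axes, logarithmic) of each of the 8 genes in each of the 18 livers, by group and weeks after injection on the x axes, with 1 point for each mouse and a line at each group mean. Gpx3 lies at 1.34 to 5.44 CPM in WT mice, 250.4 to 599 CPM in Lipa-/- mice (KO) and 9.40 to 21.4 CPM in treated mice (KOT), and WT mouse 1 of 34-weeks stands above its group for Gpx1 and Gpx4.

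In RNA from whole liver, fewer or more cells of a type and less or more RNA per cell cannot be told apart, and markers of several cell types moved with the genotype. The summed CPM of 7 macrophage and Kupffer cell markers was 102 to 462 in WT mice and 4080 to 8948 in Lipa-/- mice. Of these 7, 6 were higher and 0 lower in Lipa-/- mice at 12-weeks, and 5 were higher and 1 lower at 34-weeks. The sum of 6 stellate cell and fibroblast markers was 91.6 to 197 CPM in WT and 724 to 2437 CPM in Lipa-/- mice, with 5 higher and 1 lower at each time. The 4 neutrophil markers summed to 0.628 to 5.31 CPM in WT and 97.5 to 1480 CPM in Lipa-/- mice, with 2 of them at 0 in every WT mouse of 12-weeks and 1 in every WT mouse of 34-weeks. The 4 cholangiocyte markers summed to 6.84 to 18.7 CPM in WT and 27.2 to 72.9 CPM in Lipa-/- mice, with 2 higher at 12-weeks and 4 at 34-weeks. The 5 hepatocyte markers summed to 60376 to 77145 CPM in WT and 37746 to 57358 CPM in Lipa-/- mice at 12-weeks, with 1 lower. At 34-weeks the sums were 56212 to 74387 and 22099 to 48406 CPM, with 3 lower, and the groups overlapped at neither time. For the 4 endothelial markers the sums at 12-weeks were 65.0 to 71.4 CPM in WT and 41.6 to 47.4 CPM in Lipa-/- mice, without overlap. At 34-weeks they were 60.6 to 101 and 55.3 to 88.6 CPM. The 4 erythroid markers summed to 190 to 408 CPM in WT and 147 to 186 CPM in Lipa-/- mice at 12-weeks, without overlap. Their sums at 34-weeks were 181 to 362 and 314 to 656 CPM. The part of these cell types in the values of Gpx3, Gpx7, Gpx8, Gpx1 and Sod1 was not tested.

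The next comparisons asked how far the 8 genes differed from WT after the vector was given. At 12-weeks, 5 genes were higher in treated than in WT mice and 0 were lower, against 36.8% of all tested genes in either direction and 19.4% higher. The 5 were the peroxidases. At 34-weeks, 0 of the 8 passed in edgeR, 1 of them, Gpx3, at an unadjusted p under 0.05, against 0.22% of all tested genes. At that time limma on TPM values gave 0 calls and DESeq2 gave 1. The median log2 fold change of the 8 genes was 1.70 at 12-weeks and -0.08 at 34-weeks, against 0.06 and 0.0025 over all genes. Under total counts, the 12-week split was 5 higher and 1 lower, the latter being Sod2 (-0.90, adjusted p = 0.0248), and limma on TPM values gave 3 higher and 2 lower, the latter being Sod2 and Sod3.

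Gpx3 stayed above WT in treated mice at 12-weeks. It had 11.8, 21.4 and 9.51 CPM there, and was 5.93-fold higher than in WT mice (2.57 ± 0.39, adjusted p = 0.00166), on 121 to 394 reads. At 34-weeks, Gpx3 had 9.40, 11.2 and 17.1 CPM in treated mice, with no overlap with WT mice. The 3.28-fold difference did not pass in edgeR (1.71 ± 0.37, adjusted p = 0.0981), and it passed in DESeq2 (1.72, adjusted p = 0.00157) and without the filter on low counts (1.71, adjusted p = 0.0342). In edgeR it passed in 0 of 6 fits that each left out 1 mouse. Set beside Lipa-/- mice, Gpx3 was 23.1-fold lower in treated mice at 12-weeks (-4.53 ± 0.41, adjusted p = 8.59e-07) and 44.9-fold lower at 34-weeks (-5.49 ± 0.42, adjusted p = 2.6e-07). The comparisons at a time point share libraries, so their values for a gene are not independent.

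Gpx1 and Gpx4 were above WT in treated mice of 12-weeks and not at 34-weeks. Gpx1 had 10712, 5277 and 6679 CPM in treated mice of 12-weeks, all above the WT mice, a 2.76-fold difference (1.46 ± 0.46, adjusted p = 0.0223). It lost its call without WT mouse 1, WT mouse 3 or treated mouse 10, the last being the highest (1.05, adjusted p = 0.128), and by limma on TPM values (0.82, adjusted p = 0.0776). Gpx4 had 2867, 1417 and 1264 CPM in treated mice of 12-weeks, a 4.63-fold difference from WT (2.21 ± 0.47, adjusted p = 0.00487) that passed with each of the 6 mice left out. At 34-weeks, treated mice had 2024, 2369 and 972 CPM of Gpx1 (-0.79 ± 0.45, adjusted p = 0.931) and 352, 464 and 150.4 CPM of Gpx4 (-0.86 ± 0.46, adjusted p = 0.926). Both overlapped with WT mice, treated mouse 9 was the lowest for both genes, and it had the steepest positive slope with transcript length of all 18 mice, 0.39. The 3 treated mice of 12-weeks had the most negative slopes. With the trend removed, the 12-week values were 1.12 (adjusted p = 0.0306) for Gpx1 and 1.93 (adjusted p = 0.00349) for Gpx4.

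Gpx7 and Gpx8 showed the same order. Gpx7 had 4.96, 3.15 and 2.68 CPM in treated mice of 12-weeks, 3.82-fold above WT (1.93 ± 0.42, adjusted p = 0.00521), and 0.983, 2.06 and 0.854 CPM at 34-weeks, which overlapped with WT (-0.02 ± 0.41, adjusted p = 0.999). Gpx8 had 3.30, 2.39 and 1.15 CPM at 12-weeks, 4.75-fold above WT (2.25 ± 0.42, adjusted p = 0.00284), and 1.09, 1.01 and 0.569 CPM at 34-weeks (0.11 ± 0.40, adjusted p = 0.994). The stellate cell and fibroblast markers summed to 320 to 878 CPM in treated mice of 12-weeks and to 184 to 233 CPM at 34-weeks, and the macrophage markers to 1010 to 2882 and 322 to 765 CPM. Their part in these values was not tested. On log2(TPM + 1), which understates the change of low genes, Gpx7 did not pass at 12-weeks (0.78, adjusted p = 0.0615).

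No dismutase passed between treated and WT mice in the edgeR fit of all mice on the TMM scale. Sod1 had 1031, 1463 and 1574 CPM in treated mice of 12-weeks (0.28 ± 0.26, adjusted p = 0.411) and 1114, 1002 and 717 CPM at 34-weeks (-0.23 ± 0.26, adjusted p = 0.971). Sod2 had 85.5, 139 and 169 CPM at 12-weeks (-0.51 ± 0.28, adjusted p = 0.156), where it passed without treated mouse 12 (-0.80, adjusted p = 0.0488), and 178, 155 and 153 CPM at 34-weeks (-0.13 ± 0.28, adjusted p = 0.984). Treated mouse 10 of 12-weeks was the lowest of all 18 mice for Sod3 and the lowest of its group for Sod1 and Sod2, and its assigned length of Sod2 was 1831 bases against 913 to 1161 in the other 17. Sod3 had 3.01, 18.5 and 13.0 CPM in treated mice of 12-weeks (-0.89 ± 0.43, adjusted p = 0.109), where it passed without treated mouse 11 (-1.41, adjusted p = 0.031), and 41.6, 40.8 and 28.9 CPM at 34-weeks (0.42 ± 0.42, adjusted p = 0.965).

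Against untreated Lipa-/- mice, treated mice had 3 of the 8 genes higher and 3 lower at 12-weeks, against 54.3% of all tested genes in either direction, and 2 higher and 3 lower at 34-weeks, against 41.1%. The median log2 fold change of the 8 genes was -0.38 and -0.33, against -0.19 and 0.03 over all genes. Gpx1 was 6.51-fold higher at 12-weeks (2.70 ± 0.48, adjusted p = 0.000265) and 2.65-fold higher at 34-weeks (1.40 ± 0.46, adjusted p = 0.0214), without overlap. The later call of Gpx1 was lost without treated mouse 11 or 12 or Lipa-/- mouse 4 or 5 (1.12 to 1.43), under total counts (0.87, adjusted p = 0.0687) and by limma on TPM values (0.70, adjusted p = 0.102). Sod1 was 2.19-fold higher at 12-weeks (1.13 ± 0.27, adjusted p = 0.00215) and 2.71-fold higher at 34-weeks (1.44 ± 0.27, adjusted p = 0.000399). Gpx4 was 2.68-fold higher at 12-weeks (1.42 ± 0.46, adjusted p = 0.0163), and was lost without treated mouse 10 (0.93, adjusted p = 0.117). At 34-weeks, Gpx4 did not pass (-0.36 ± 0.45, adjusted p = 0.562), and limma on log2(TPM + 1) called it lower (-1.27, adjusted p = 0.00837). The 12-week values of Sod1 and Gpx4 stayed positive without passing under total counts (0.27, adjusted p = 0.316, and 0.51, adjusted p = 0.25). By limma on log2(TPM + 1), which differs in scaling, length handling and test together, they were -0.03 and -0.02 (adjusted p = 0.914 and 0.961).

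Gpx7 was 2.34-fold lower in treated than in Lipa-/- mice at 12-weeks (-1.23 ± 0.39, adjusted p = 0.0138), with groups that overlapped, and it lost this call without treated mouse 12 (-1.09, adjusted p = 0.0507) or Lipa-/- mouse 9 (-0.80, adjusted p = 0.0913), and when only the groups compared were fitted (-1.20, adjusted p = 0.0535). At 34-weeks, it was 6.94-fold lower without overlap (-2.80 ± 0.41, adjusted p = 4.57e-05). Gpx8 did not pass at 12-weeks (-0.59 ± 0.37, adjusted p = 0.19) and was 5.67-fold lower at 34-weeks (-2.50 ± 0.39, adjusted p = 8.21e-05). The 12-week value of Gpx8 passed with the length and GC trend removed (-1.56, adjusted p = 0.00113), under total counts (-1.47, adjusted p = 0.00329) and by limma on TPM values (-1.23, adjusted p = 0.000702). Removal of the trend took Gpx8 at 1854 bases, against a median of 756 bases assigned by Salmon, and the effect of this mismatch was not tested. Sod3 was 3.70-fold lower at 12-weeks (-1.89 ± 0.43, adjusted p = 0.00187), with treated mouse 10 the lowest, and -1.48 was its smallest size without any 1 of the 6 mice. At 34-weeks, Sod3 overlapped (-0.29 ± 0.42, adjusted p = 0.607). Sod2 passed at neither time (-0.16 ± 0.28, adjusted p = 0.636, and 0.54 ± 0.28, adjusted p = 0.133), but it passed as lower at 12-weeks under total counts (-1.02, adjusted p = 0.00663) and by limma on TPM values (-1.77, adjusted p = 0.00106), and as higher at 34-weeks without Lipa-/- mouse 5 (0.84, adjusted p = 0.0377). Under total counts, the split of the calls was 1 higher and 5 lower at 12-weeks, and 1 higher and 3 lower at 34-weeks. Limma on TPM values gave 1 and 5, and 1 and 4.

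**Figure D3:**
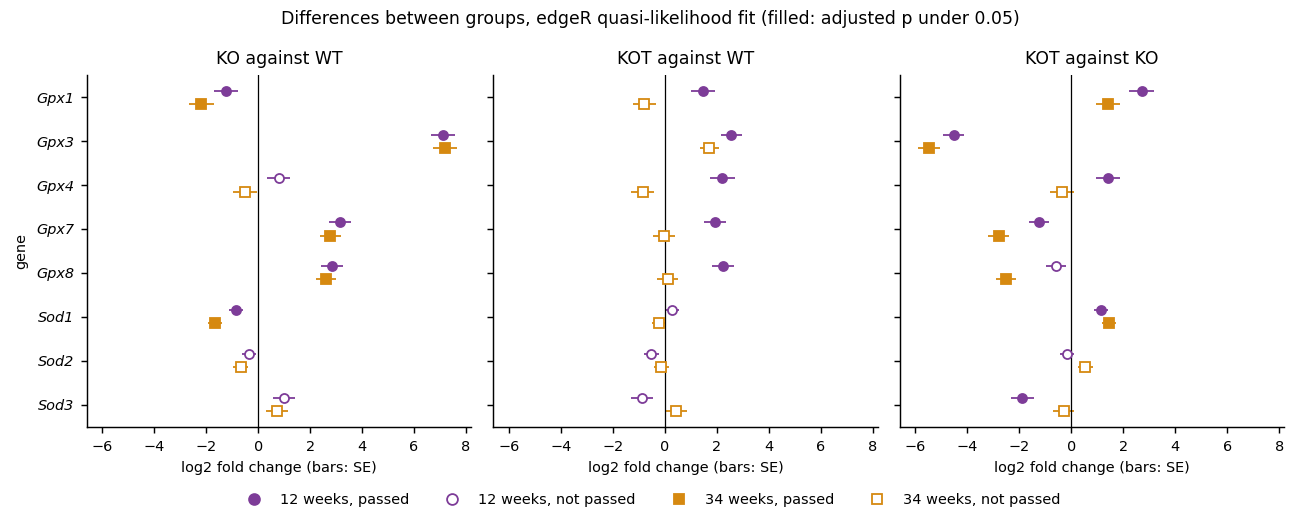
Log2 fold change of the 8 genes with its SE (bars) from the edgeR fit on the TMM scale, for Lipa-/- (KO) against WT, treated (KOT) against WT and treated against Lipa-/- mice, with circles for 12-weeks, squares for 34-weeks and filled symbols at an adjusted p under 0.05. Gpx3 lies at 7.10 and 7.20 in Lipa-/- against WT mice, and all 5 peroxidases are filled in treated against WT mice at 12-weeks while no gene is filled at 34-weeks; the 12-week values of Gpx4 and Sod1 in treated against Lipa-/- mice change sign by limma on log2(TPM + 1).

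Within WT mice and within Lipa-/- mice, edgeR called 0 of the 8 genes between 34- and 12-weeks, against 0.33% and 0.523% of all tested genes. At an unadjusted p under 0.05 there were 0 in WT mice and 2 in Lipa-/- mice (Gpx3 and Sod1), while DESeq2 called 0 and 1 and limma on TPM values 0 and 2. In treated mice, 5 of the 8 passed, against 45.2% of all tested genes. Gpx1 was 4.23-fold lower at 34- than at 12-weeks (-2.08 ± 0.47, adjusted p = 0.00281), Gpx4 5.74-fold lower (-2.52 ± 0.48, adjusted p = 0.0016), Gpx7 2.72-fold lower (-1.44 ± 0.41, adjusted p = 0.00951) and Gpx8 2.55-fold lower (-1.35 ± 0.39, adjusted p = 0.0115). Sod3 was 3.19-fold higher at 34-weeks (1.68 ± 0.43, adjusted p = 0.00589). Gpx7 and Gpx8 lost their calls without treated mouse 9 of 34-weeks (-1.21 and -1.11) or treated mouse 10 of 12-weeks (-1.12 and -0.98). With the length and GC trend removed, Gpx8 was at -0.34 (adjusted p = 0.466) and Gpx7 still passed (-1.17, adjusted p = 0.0202). That fit took Gpx8 at 1854 bases, against a median of 756 bases assigned by Salmon. By limma on log2(TPM + 1), Gpx7 was at -0.31 and Gpx8 at -0.28 (adjusted p = 0.422 and 0.376). Under total counts the split was 2 higher and 2 lower instead of 1 and 4. Time, study code and the slope with transcript length all differed between these 2 groups of treated mice and cannot be told apart.

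The difference from WT was itself compared between the time points. For Lipa-/- mice, edgeR called 0 of the 8 genes, against 0.0619% of all tested genes, with 1 gene (Sod1) at an unadjusted p under 0.05 and 0 calls by DESeq2 and by limma on TPM values. For treated mice, it called 4 of the 8, against 19.6% of all tested genes: Gpx1, Gpx4, Gpx7 and Gpx8 each had a lower log2 fold change from WT at 34- than at 12-weeks. All 4 lost their calls without WT mouse 1 of 12-weeks, WT mouse 3 of 12-weeks, WT mouse 1 of 34-weeks or treated mouse 9 of 34-weeks, with 0 of the 8 genes then passing in edgeR. Over all genes, 2844 passed, against 65, 3, 173 and 1 without these mice.

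**Figure D4:**
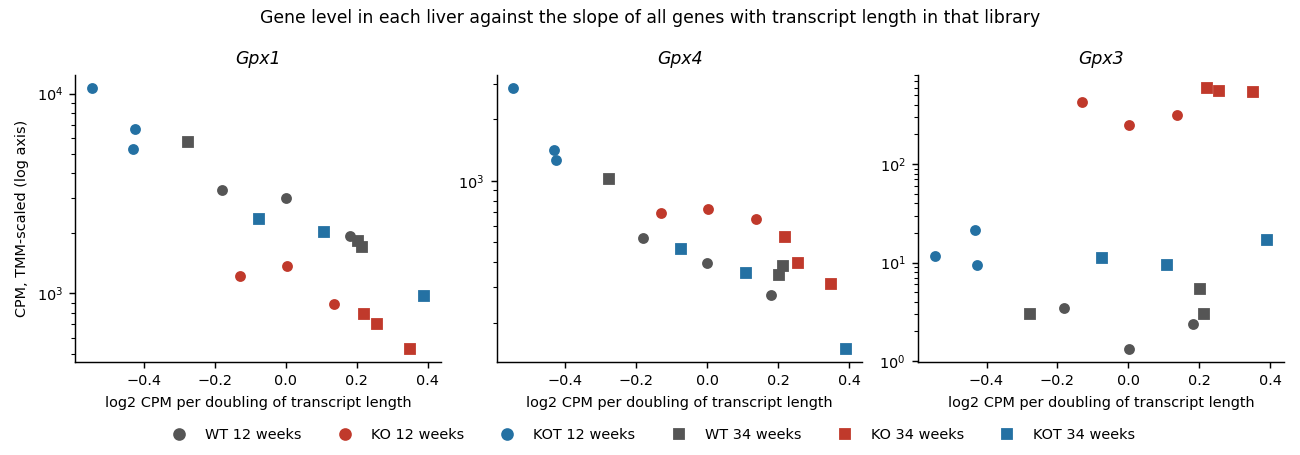
TMM-scaled CPM (y axes, logarithmic) of Gpx1, Gpx4 and Gpx3 in each liver against the slope of log2 CPM with each doubling of transcript length over all genes of that library (x axes), 1 point for each of the 18 mice. Gpx1 and Gpx4 are highest in the treated mice of 12-weeks, whose slopes are -0.55 to -0.43, and Gpx3 is high in Lipa-/- mice (KO) at slopes on both sides of 0.

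Other genes of peroxide, glutathione, selenium and metal handling were counted whole, by list. Of the 3 further peroxidase genes, Gpx2 and Gpx6 passed the filter and Gpx5 did not, with at most 2 reads in any mouse. Gpx2, the epithelial peroxidase, was at 0 to 0.314 CPM in WT mice and at 0.284 to 1.64 CPM in Lipa-/- mice, and passed as higher at both times (adjusted p = 0.0356 and 0.00399), on no more than 52 reads and with groups that overlapped at 12-weeks. Its 12-week call held in 2 of 6 fits with a mouse left out (2.38 to 7.26), being lost without WT mouse 1 or 2 or Lipa-/- mouse 8 or 9 (adjusted p up to 0.12). Gpx6 was at 0.662 to 2.42 CPM in WT mice and at no more than 0.0946 CPM, or 3 reads, in Lipa-/- mice, and passed as lower at both times (adjusted p = 9.28e-05 and 0.000161).

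Of 13 peroxide and thioredoxin enzymes, 0 were higher and 4 lower in Lipa-/- mice at 12-weeks, and 0 higher and 7 lower at 34-weeks, against 39.2% and 47.3% of all tested genes in either direction, with medians of -0.34 and -0.78. Cat, the peroxisomal catalase, was 4.17-fold lower at 12-weeks (-2.06 ± 0.28, adjusted p = 2.31e-05) and 8.68-fold lower at 34-weeks (-3.12 ± 0.29, adjusted p = 4.57e-07). Prdx6, the 1-Cys peroxiredoxin, was 1.99-fold and 2.96-fold lower, and Txnrd2, the mitochondrial thioredoxin reductase, 1.79-fold and 3.20-fold lower. Their 12-week calls were lost under total counts and by limma on TPM values, with adjusted p up to 0.0595 for Prdx6 and 0.37 for Txnrd2 over the alternatives. Of 8 tested genes of glutathione synthesis and recycling, 2 were higher and 2 lower at 12-weeks and 1 higher and 4 lower at 34-weeks, beside the same shares of all genes, with medians of -0.04 and -0.48. Gss, glutathione synthetase, was 2.30-fold higher at 12-weeks (adjusted p = 0.00128), and Ggt5, a glutamyltransferase, was 3.31-fold and 2.55-fold higher. Glrx5, the mitochondrial glutaredoxin of iron-sulfur cluster assembly, was 2.14-fold and 3.60-fold lower, and Gclc, the catalytic subunit of the rate-limiting step of glutathione synthesis, was 4.34-fold lower at 34-weeks (adjusted p = 8.79e-05). Gsr, which regenerates glutathione, was at 0.02 ± 0.15 and 0.01 ± 0.15 and passed at neither time in the edgeR fit on the TMM scale. At 34-weeks it passed as higher under total counts (0.64, adjusted p = 0.0195) and by limma on TPM values (0.65, adjusted p = 0.0414), and its sign turned in other fits.

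Since Gpx1, Gpx3 and Gpx4 need selenium, genes of its supply were examined too. Of 9 genes of selenium supply and selenocysteine insertion, 1 was higher and 3 lower in Lipa-/- mice at 12-weeks, and 1 higher and 5 lower at 34-weeks, against 39.2% and 47.3% of all tested genes, with medians of -0.38 and -1.01. Sephs2, which makes selenophosphate, was 2.16-fold lower at 12-weeks (adjusted p = 0.00349) and 3.77-fold lower at 34-weeks (adjusted p = 2.84e-05). Sepsecs, which forms selenocysteine on its tRNA, was 2.57-fold and 3.69-fold lower (adjusted p = 6.79e-05 and 2.27e-06). Selenop, the selenium carrier that the liver secretes, did not pass at 12-weeks (-0.77 ± 0.46, adjusted p = 0.204) and was 3.62-fold lower at 34-weeks (-1.86 ± 0.48, adjusted p = 0.00409). Lrp8, a receptor for that carrier, was at 0.852 to 2.40 CPM in Lipa-/- mice and at 0 to 0.197 CPM in WT mice, where all 3 mice of 12-weeks had 0 reads, and passed as higher at both times (adjusted p = 0.000769 and 0.000935), though not at 12-weeks by limma on TPM values (adjusted p = 0.071). Of 12 other selenoproteins, 2 were higher and 3 lower at 12-weeks and 2 higher and 5 lower at 34-weeks, beside the same shares of all genes, with medians of 0.11 and -0.64. Selenon and Selenom, both of the endoplasmic reticulum, were higher, by 9.32-fold and 6.67-fold at 12-weeks and 8.35-fold and 6.54-fold at 34-weeks. Selenoi, which makes phosphatidylethanolamine, was 2.40-fold lower at 12-weeks (adjusted p = 0.00109, and 0.127 by limma on TPM values), and Selenoo, a mitochondrial selenoprotein, was 3.67-fold lower at 34-weeks (adjusted p = 1.37e-05).

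Of 8 genes of copper and manganese supply, on which the dismutases depend, 0 were higher and 4 lower in Lipa-/- mice at 12-weeks and 0 higher and 5 lower at 34-weeks, against 39.2% and 47.3% of all tested genes, with medians of -0.71 and -1.25. Ccs, the chaperone that loads copper into Sod1, was 1.68-fold lower at 12-weeks (-0.74 ± 0.25, adjusted p = 0.028, passing in 2 of 6 fits with a mouse left out and neither under total counts nor by limma on TPM values) and 3.05-fold lower at 34-weeks (-1.61 ± 0.26, adjusted p = 8.67e-05). Slc31a1, the copper importer, was 2.01-fold lower at 12-weeks (adjusted p = 0.000433, and 0.0888 by limma on TPM values). The metal transporter Slc39a8 was 2.42-fold and 2.87-fold lower, and the manganese exporter Slc30a10 was 5.19-fold and 9.95-fold lower. In treated against WT mice at 34-weeks, the medians of the lists other than the peroxidase genes were between -0.30 and -0.05. In treated against WT mice at 12-weeks, 36.8% of all tested genes passed and 19.4% were higher. Of the lists, 10 of the 12 other selenoproteins were then higher and 0 lower (median 1.00), 5 of the 13 peroxide and thioredoxin enzymes were higher and 1 lower (median 0.34), and 3 of the 8 glutathione genes were higher and 0 lower (median 0.34). Of the 9 selenium supply genes 3 were higher and 2 lower (median 0.19), of the 8 copper and manganese genes 1 was higher and 3 lower (median -0.48), and neither Gpx2 nor Gpx6 passed. These values rest on the same libraries of low length slope.

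The genes whose levels ran most like each of the 8 over the 18 mice were found by Pearson's r of log2 CPM among the 12598 tested genes whose mean was 1 CPM or more, as a description. The points share 6 groups and their libraries, and thus also the differences in depth, genotype and length slope. For Gpx3 they were Rab7b, Slc37a2 and Vim (r = 0.991, 0.99 and 0.99), for Gpx7 Fli1, Serpinb6a and Tspan3 (0.983, 0.982 and 0.978) and for Gpx8 Col3a1, Rbbp8 and Tspan3 (0.976, 0.966 and 0.964). For Gpx1 they were Coq2, Cnbp and Ndufb9 (0.993, 0.991 and 0.991), for Gpx4 Atox1, Bloc1s1 and Cox17 (0.984, 0.98 and 0.98) and for Sod1 Rnf5, Ccs and Mettl26 (0.988, 0.988 and 0.987). Sod2 came nearest to Cyp4f13, Fah and Cebpg (0.897, 0.887 and 0.886) and Sod3 to Nagpa, Zbtb42 and Triobp (0.957, 0.956 and 0.953). Among the 8 themselves, r was highest between Gpx7 and Gpx8 (0.958), followed by Gpx3 with Gpx8 (0.899) and with Gpx7 (0.899), and Gpx1 with Sod1 (0.855). It was lowest between Gpx1 and Sod3 (-0.832) and between Gpx3 and Sod1 (-0.825).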

How the data were processed

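Liver RNA of 18 mice (6 groups of 3) had been sequenced as paired-end reads. The authors assigned the reads to GRCm39 Ensembl cDNA with Salmon and summed transcripts to genes with tximport in R 4.3.0. The deposited tables hold estimated counts, TPM (per length, within each library, by the authors) and an effective gene length in bases. A deposited table of the authors' own DESeq2 1.40.1 comparisons (fold changes, standard errors and p-values) was not used. Groups followed the labels, and the members and gene lists were chosen with earlier results of these data known.

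Here, the deposited estimated counts were rounded, and 14533 genes with more than 100 reads over the 18 libraries were tested with edgeR 4.0.16 in R 4.3.3, by the quasi-likelihood test with TMM factors, 6 group means and Benjamini-Hochberg adjustment. A gene passed at an adjusted p under 0.05, and SE is the log2 fold change over the square root of F. With 3 against 3 mice an exact permutation test cannot go below 0.1, so none was used. All 8 genes are named, and, for Lipa-/- against WT mice at each time, up to 3 genes of each list that passed with the largest absolute log2 fold change, plus Cat, Gsr, Selenop and Ccs. Alternatives were DESeq2 1.42.0 and edgeR with length offsets, other scalings and filters, limma 3.58.1 on log2(TPM + 1), only the groups compared, a stricter threshold, each mouse left out and a block by mouse number. Removal of each library's trend with length and GC content was added after the data were seen. It used canonical transcript lengths, which for Sod1 (5315 bases) and Sod2 (5983 bases) are far above the Salmon medians of 414 and 1044 bases. Those of Gpx8 (1854 bases) and Gpx3 (2843 bases) are also above their Salmon medians of 756 and 1363 bases. The scripts were tested on simulated data. Sequences, gene positions and promoters are from GRCm39 with the GENCODE annotation. Total counts were 17527848 to 25833134, and low counts such as 5 to 14 reads of Gpx8 limit precision. Tf, of the hepatocyte markers, was not analysed here.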

Additional observations from a re-analysis of the deposited data

Results flagged for a closer look

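For 4 genes, the difference between treated and WT mice itself differed between the time points by the interaction term of the edgeR fit. The log2 difference, 34- minus 12-weeks, was -2.25 ± 0.65 SE for Gpx1 (adjusted p = 0.0301), -3.07 ± 0.66 for Gpx4 (adjusted p = 0.0237), -1.96 ± 0.59 for Gpx7 (adjusted p = 0.0339) and -2.14 ± 0.58 for Gpx8 (adjusted p = 0.027). Of all tested genes, 19.6% passed this test. All 3 treated mice of 12-weeks stood above every WT mouse of 12-weeks for each of the 4 genes, and at 34-weeks the groups overlapped for each. These are the values that gave the calls, so they are no separate support. The share of all tested genes without overlap in these comparisons is not given here. Between treated and WT mice, 36.8% of all tested genes passed at 12-weeks and 0.22% at 34-weeks. All 4 calls were lost without any 1 of 4 mice, 3 WT mice and 1 treated mouse, which are named above. Over 12 fits that each left out 1 mouse, Gpx1 and Gpx7 passed in 6, Gpx8 in 7 and Gpx4 in 8. All 4 calls were also lost when only the groups compared were fitted (edgeR, adjusted p = 0.0555 to 0.0676). The 4 calls held in DESeq2, while 3 held with the trend of counts with length and GC content removed (Gpx8 -1.19, adjusted p = 0.119), 2 under total counts (Gpx1 and Gpx4) and 1 by limma on TPM values (Gpx4). The length slopes of the libraries, -0.55 to -0.43 in treated mice of 12-weeks and -0.07 to 0.39 in those of 34-weeks, moved with these values, and their part in the result was not tested beyond the removal of the trend. That removal took Gpx8 at 1854 bases, against a median of 756 bases assigned by Salmon.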

How the results depend on the processing

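Gpx3, Gpx7 and Gpx8 kept their direction and call in Lipa-/- against WT mice in every alternative run, at both times. Counts of the 8 genes that passed moved as follows. DESeq2 gave 1 and the fit without a filter 1 for treated against WT mice at 34-weeks (0 in the fit reported). For Lipa-/- mice between times, DESeq2 gave 1 and limma on TPM values 2, against 0. For Lipa-/- against WT mice at 12-weeks, an adjusted p under 0.01 left 3 of 5, and leaving out single mice gave 3 to 5, with 3 without WT mouse 2 or Lipa-/- mouse 8 or 9. For the difference of the treated effect between times, 4 as reported became 2 under total counts, 1 by limma, 0 with only the groups compared and 0 at an adjusted p under 0.01, and leaving out single mice gave 0 to 5. For treated mice between times, leaving out single mice gave 3 to 5, against 5. Leaving out single mice also gave 5 to 6, against 5, for Lipa-/- against WT mice at 34-weeks, 4 to 6, against 5, for treated against WT mice at 12-weeks, and 5 to 6 and 4 to 5, against 6 and 5, for treated against Lipa-/- mice at 12- and 34-weeks. The cause was not tested.

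These log2 fold changes turned sign, none of them passing in the fit reported except those of Gpx4 and Sod1 in treated against Lipa-/- mice at 12-weeks. Under total counts, Sod2 was 0.12 and Gpx4 0.20 in Lipa-/- against WT mice at 12- and 34-weeks, and Sod1 -0.10 and Gpx7 0.088 in treated against WT mice at 12- and 34-weeks; Gpx7 was 0.041 there with upper-quartile factors. By limma on TPM values, Sod2 was 0.23 and 0.11 and Gpx4 0.58 (34-weeks) in Lipa-/- against WT mice, Sod1 -0.38 (12-weeks) and Sod2 0.071 (34-weeks) in treated against WT mice, and Gpx4 -0.021, Sod1 -0.034 (12-weeks) and Sod2 -0.035 (34-weeks) in treated against Lipa-/- mice. With length offsets, Gpx8 was -0.018 in DESeq2 and -0.017 in edgeR for treated against WT mice at 34-weeks, and Gsr was -0.038 and -0.049 at 12-weeks and -0.015 in edgeR at 34-weeks; with the trend removed, Gsr was -0.20 at 12-weeks. Leaving out single mice, the range was -0.76 to 0.18 for Gpx4 and -0.053 to 0.097 for Gsr in Lipa-/- against WT mice at 34-weeks, and -0.045 to 0.13 for Gsr at 12-weeks. In treated against WT mice at 34-weeks it was -1.08 to 0.016 for Gpx1, -0.54 to 0.21 for Gpx7, -0.36 to 0.025 for Sod1 and -0.049 to 0.36 for Gpx8, and for Sod2 in treated against Lipa-/- mice at 12-weeks -0.42 to 0.035.

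Mouse numbers recur within WT and within treated mice of the 2 times, but the animals differ and the correlations of deviations were -0.25 to 0.46, so the numbers were not taken to pair them. With a replicate block by number, 3 of the 8 genes passed for treated mice between times and 0 for WT mice. For treated mice this fit held only mice 11 and 12 of each time, without mouse 10 of 12-weeks and mouse 9 of 34-weeks. Depth limits Gpx7 and Gpx8, with 13 to 36 and 5 to 21 reads in WT mice.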
